A study of Homo sapiens with 72 samples.

Results

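The tubulin genes encode the alpha and beta subunits whose paired heterodimers are the building blocks of microtubules. The 10 genes were picked out by gene symbol, with no threshold on their values. They are the 4 alpha genes TUBA1A, TUBA1B, TUBA1C and TUBA4A and the 6 beta genes TUBB, TUBB2A, TUBB2B, TUBB3, TUBB4B and TUBB6. All 10 were found among the 61541 genes of each table. TUBA1B, TUBA1C, TUBB, TUBB4B and TUBB6 are made in many dividing cell types, whereas TUBA1A, TUBB2A, TUBB2B and TUBB3 are best known from neurons, and TUBA4A is the alpha gene whose protein is made without the usual C-terminal tyrosine.

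Cells set the amount of alpha and beta tubulin mRNA by autoregulation. When unpolymerised tubulin is plentiful, the factor TTC5 recognises the first residues of a new tubulin chain as it leaves the ribosome. Through SCAPER it brings the CCR4-NOT deadenylase to the mRNA being translated, which is then degraded. G3BP1 is an RNA-binding protein at the core of stress granules, the cytoplasmic bodies that form when translation initiation stops, and its NTF2-like domain mediates dimerisation and binding to partner proteins.

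Messenger RNA from 24 of the 72 libraries of the series was compared here in 11 groups, and the other 48 libraries were not analysed here. RNA immunoprecipitation used FlpIn 293 Trex cells, an embryonic kidney line with a stably integrated FLAG-G3BP1 that was induced with 1 ug/mL tetracycline for 24 h, and set 3 precipitated libraries (IP) against 3 input libraries. RNA-seq used U2OS osteosarcoma cells with 2 libraries per group in 2 experiments. The first experiment held untreated wild-type cells, untreated cells with G3BP1 and its paralog G3BP2 knocked out (KO), and KO cells 24 h after lipofection with a G3BP1 transgene. In the second experiment the 6 groups all carried the G3BP1/2 knockout. They were untransfected KO cells, KO cells 24 h after lipofection with wild-type G3BP1 (WT rescue) and KO cells 24 h after lipofection with G3BP1 lacking NTF2 (NTF2 deletion rescue), each without arsenite or with 200 uM sodium arsenite for 2 h. Arsenite is an oxidative stressor that induces stress granules. No group was mock-transfected, so the transgene and the lipofection cannot be told apart in the rescue comparisons, and no label says how many knockout clones were used. No label says that libraries of a group came from separate cultures, so p-values measure only the spread between these libraries.

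Reads in genes ranged from 36.7 to 49.8 M per library in the first experiment and from 10.8 to 27.8 M in the second, and averaged 12.2 M normalised reads in the precipitation. Whole reads of all 10 tubulin genes were worked out for each of the 18 U2OS libraries from the base means of the authors' deposited tables, and values below are normalised reads per library, with the libraries of a group in no order. G3BP1 itself was counted at 12603 and 12629 normalised reads in first-experiment KO libraries, 18087 and 19022 in wild type, and 20087 and 20373 after G3BP1 transfection. In the second experiment it lay between 3168 and 3884 in the KO libraries with or without arsenite and between 591137 and 977487 in the 8 rescue libraries. G3BP2 stood at a log2 fold change of -0.36 (SE 0.06) in KO over wild type in the authors' deposited table. Reads over a knocked-out gene do not show whether protein is made. Of 6 markers for the U2OS lineage, VIM, SPARC, RUNX2 and FN1 were counted in every U2OS library, while TWIST1 stayed between 0 and 1.12 and COL1A2 between 4.20 and 29.4 normalised reads. Among kidney markers for the 293 cells, EYA1, PAX2 and LHX1 had base means of 76.4, 45.8 and 36.9, and PAX8 was at 0. The neuronal markers DCX and STMN2 did not exceed 9.32 normalised reads in any U2OS library, whereas SNAP25 reached 1066 and SYT1 579.

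TUBA1B, TUBA1A and TUBA1C are neighbours on chromosome 12, and TUBB2A and TUBB2B are neighbours on chromosome 6. The 200 bases before the annotated start of TUBA1A, TUBA1B, TUBB2A and TUBB2B are shown because the neighbours differed in their change between rescue and KO cells of the second experiment. They are from RefSeq on GRCh38.p14, 5′ to 3′ on the strand of the gene, which is the minus strand for all 4. Capitals mark 3 short promoter motifs on either strand, which are the CCAAT box, the TATA box (spelled TATAAA) and the GC box (spelled GGGCGG).
TUBA1A, chr12:49189081-49189280: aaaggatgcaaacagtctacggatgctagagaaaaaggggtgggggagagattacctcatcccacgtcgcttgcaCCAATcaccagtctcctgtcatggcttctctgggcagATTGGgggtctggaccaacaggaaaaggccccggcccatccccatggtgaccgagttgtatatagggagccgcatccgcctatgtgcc
TUBA1B, chr12:49131396-49131595: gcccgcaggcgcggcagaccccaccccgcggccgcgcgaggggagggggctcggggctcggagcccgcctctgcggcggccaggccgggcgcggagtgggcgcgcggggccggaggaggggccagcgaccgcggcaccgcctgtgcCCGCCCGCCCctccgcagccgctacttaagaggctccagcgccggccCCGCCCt
TUBB2A, chr6:3157545-3157744: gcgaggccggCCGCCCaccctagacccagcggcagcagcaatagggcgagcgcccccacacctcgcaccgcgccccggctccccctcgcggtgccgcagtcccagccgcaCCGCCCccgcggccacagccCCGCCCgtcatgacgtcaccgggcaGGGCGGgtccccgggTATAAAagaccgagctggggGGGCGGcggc
TUBB2B, chr6:3227654-3227853: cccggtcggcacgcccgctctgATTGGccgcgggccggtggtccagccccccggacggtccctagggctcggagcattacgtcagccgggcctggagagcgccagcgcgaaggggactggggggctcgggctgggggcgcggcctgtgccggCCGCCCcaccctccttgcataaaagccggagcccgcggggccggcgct
TUBA1A held 2 CCAAT and no GGGCGG, and TUBA1B held 3 GGGCGG, of which 2 overlapped, and no CCAAT. TUBB2A held 5 GGGCGG and 1 TATAAA, and TUBB2B held 1 CCAAT and 1 GGGCGG. Over the same 200 bases of 35116 promoters, 28.0% held CCAAT, 8.59% TATAAA and 40.1% GGGCGG on either strand. GC content was 56% before TUBA1A, 83.5% before TUBA1B, 78% before TUBB2A and 77% before TUBB2B. TUBA1C rose with TUBA1B after rescue, and the same window before its first listed start held 1 CCAAT and no GGGCGG. Only the first start listed for each tubulin gene was used, and any other start was not examined. A match of letters is a description and not a binding site.

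Tubulin mRNAs were mostly more abundant in the FLAG-G3BP1 precipitate than in the input. No mock, untagged or uninduced precipitate is among the samples, so binding to G3BP1 and background recovery cannot be told apart. In the authors' deposited table, DESeq2's adjusted p was under 0.05 for all 10 genes, 9 higher and 1 lower. Of the 22856 genes tested, 56.1% were called, 24.7% higher and 31.4% lower. The median log2 fold change was 1.54 over the 10 genes and -0.26 over all genes tested. Over genes whose base mean was 100 or more it was 0.12.

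The alpha genes TUBA1A, TUBA1B and TUBA1C had higher values than any beta gene. TUBA1A stood at a log2 fold change of 2.74 (SE 0.15, DESeq2 adjusted p = 6.8e-71) and TUBA1B at 2.67 (SE 0.14, DESeq2 adjusted p = 1.9e-81) in the authors' deposited table. Group levels implied by that table's base mean and fold change were 90659.9 normalised reads in the IP and 14246 in the input for TUBA1B, and 6625 and 989 for TUBA1A. TUBA1C reached 1.74 (SE 0.15) in the same deposited table of the authors. TUBA4A was scarce, with 26, 34 and 18 reads in the IP libraries and 7, 10 and 7 in the input libraries. TUBA4A stood at 1.57 (SE 0.50, DESeq2 adjusted p = 0.0041) in the authors' deposited table.

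**Figure D1:**
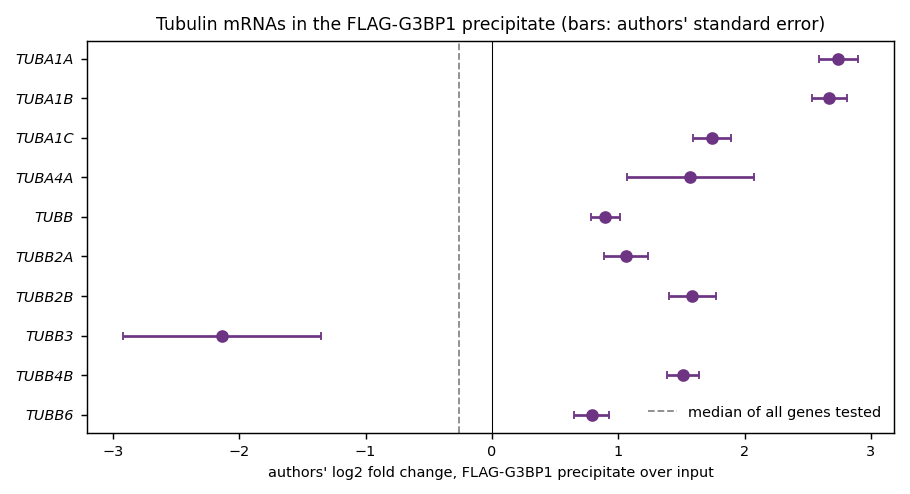
Log2 fold change of each tubulin gene in the FLAG-G3BP1 precipitate over input from the authors' deposited table (x axis), with the authors' standard error as bars and the median of all genes tested as a dashed line. In all, 9 genes lie to the right of 0, from 0.79 (TUBB6) to 2.74 (TUBA1A), and TUBB3 lies at -2.13.

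Among the beta genes, TUBB2B (1.59, SE 0.19) and TUBB4B (1.51, SE 0.13) had higher log2 fold changes than TUBB2A (1.06, SE 0.18), TUBB (0.90, SE 0.12) and TUBB6 (0.79, SE 0.14) in the authors' deposited table. TUBB3 was the exception. It had 1, 2 and 2 reads in the IP libraries against 7, 14 and 10 in the input. Its log2 fold change was -2.13 (SE 0.78, DESeq2 adjusted p = 0.013) in the authors' deposited table. The TUBB3 call rests on these few reads and was lost with an adjusted p threshold of 0.01 and with a base mean filter of 10. Per-library reads of the other 8 genes could not be worked out for this experiment. The TUBA4A and TUBB3 reads are the solution nearest to a start set from the deposited base mean and fold change. They are therefore no separate support for the fold change, and their recovery was not tested on simulated data. When the Wald statistics were divided by their spread over genes whose base mean was 100 or more, which was 9.34, no tubulin gene kept its call. This scaling takes the spread over all those genes, real changes included, as noise. The share of all genes that keep a call under it is not given, here or below. A call lost this way is therefore no result about the tubulin genes in particular.

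In the first experiment, loss of G3BP1 and G3BP2 went with lower reads for 6 of the 10 genes and higher reads for TUBA1B. The authors' deposited table of KO over wild type had 37.8% of 25724 genes called, 18.4% higher and 19.4% lower. The median log2 fold change was -0.24 over the tubulin genes and 0.01 over all genes tested. Reads of the 2 groups did not overlap for 1 gene higher and 8 lower in KO cells, where 37.0% and 36.1% of all genes tested did not overlap in each direction.

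TUBA1B had 67878 and 68711 normalised reads in KO libraries and 53792 and 56350.1 in wild type. All KO values lay above the wild-type values, with a log2 fold change of 0.31 (SE 0.04, DESeq2 adjusted p = 8.4e-12) in the authors' deposited table. TUBA1A went the other way, from 5313 and 5643 normalised reads in wild type to 3171 and 3176 in KO cells. Its log2 fold change was -0.79 (SE 0.06, DESeq2 adjusted p = 1.6e-33) in the authors' deposited table. TUBA4A had 989 and 1019.7 normalised reads in KO libraries against 2151 and 2308 in wild type. Its log2 fold change of -1.14 (SE 0.09, DESeq2 adjusted p = 4.8e-35) in the authors' deposited table was the lowest of the 10. TUBA1C fell by less, at -0.19 (SE 0.05, DESeq2 adjusted p = 0.00069) in the authors' deposited table.

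TUBB4B showed the lowest fold change of the beta genes. It had 14470.4 and 15114 normalised reads in KO libraries and 24864 and 26731 in wild type, without overlap, and a log2 fold change of -0.80 (SE 0.05, DESeq2 adjusted p = 8.7e-54) in the authors' deposited table. TUBB and TUBB2B each had -0.24 in that deposited table of the authors, with adjusted p of 3.1e-07 and 0.023. TUBB2A (-0.20), TUBB3 (-0.34) and TUBB6 (0.09) were not called, with DESeq2 adjusted p of 0.32, 0.22 and 0.23 in the authors' deposited table. The TUBB2B call was lost in limma without 1 wild-type library (-0.15, adjusted p = 0.089), while TUBB3 was called by limma with all libraries (-0.36, adjusted p = 0.039). With the Wald statistics divided by their spread of 4.45, TUBB4B alone of the 10 genes kept its call.

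**Figure D2:**
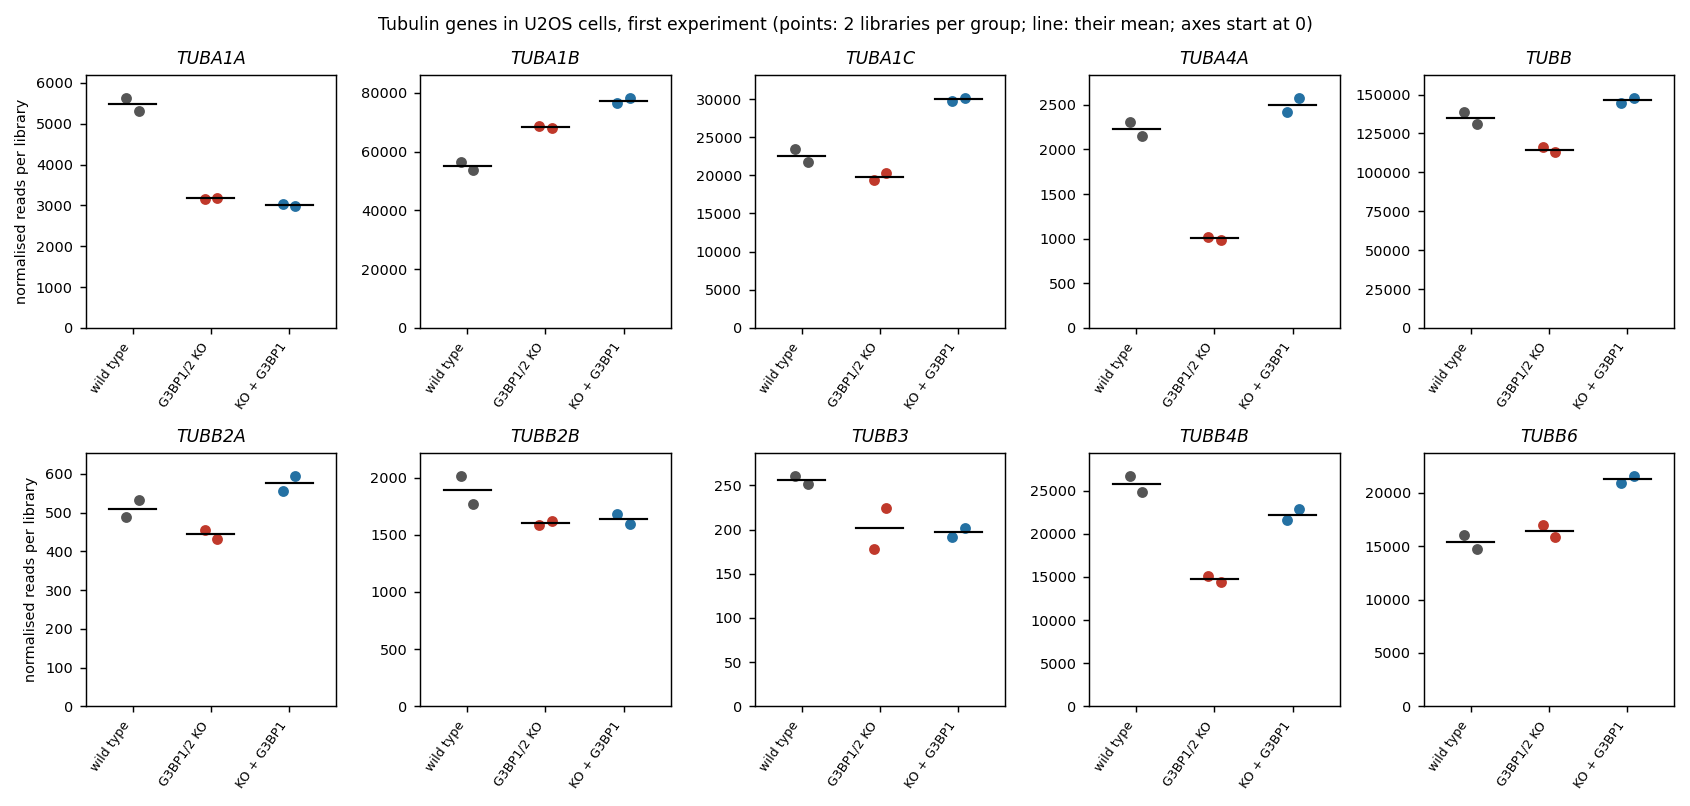
Normalised reads per library (y axes, starting at 0) of each tubulin gene in wild-type, G3BP1/2 KO and G3BP1-transfected KO cells of the first experiment. Points are the 2 libraries per group and the line is their mean. TUBA4A and TUBB4B are lowest in KO cells, TUBA1A is highest in wild type, and TUBA1B, TUBA1C and TUBB6 are highest after transfection.

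Transfection of G3BP1 into KO cells went with more reads for 7 of the 10 genes. The authors' deposited table is written as KO over rescue, so a negative value means higher after transfection. It called 37.6% of 22945 genes, 16.1% higher and 21.5% lower in KO cells, and none of the 10 tubulin genes was called higher in KO cells. This table and the KO over wild type table share the same KO libraries. Groups did not overlap for 1 gene higher and 7 lower in KO cells, beside 36.4% and 37.2% of all genes tested. TUBA4A had 2415 and 2579.7 normalised reads after transfection, against 989 and 1019.7 without, and a log2 fold change of -1.30 (SE 0.08, DESeq2 adjusted p = 2.1e-53) in the authors' deposited table. TUBA1C rose to 29742 and 30188 normalised reads from 19347 and 20293, with -0.61 (SE 0.04) in the authors' deposited table. TUBB4B rose to 21649 and 22849 from 14470.4 and 15114, with -0.60 (SE 0.05) in the authors' deposited table. Smaller values were called for TUBB6 (-0.38), TUBB (-0.37), TUBB2A (-0.37) and TUBA1B (-0.19) in the authors' deposited table. The TUBA1B call was lost in limma without 1 transfected library (-0.17, adjusted p = 0.065). TUBA1A (0.07), TUBB2B (-0.05) and TUBB3 (0.01) had DESeq2 adjusted p of 0.47, 0.72 and 0.97 in the authors' deposited table. With the statistics divided by their spread of 4.13, TUBA1C and TUBA4A kept their calls.

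Wild-type and G3BP1-transfected KO cells differed for 7 of the 10 genes, 2 higher and 5 lower in wild type, where 15.2% and 20.4% of 22861 genes were called higher and lower and 35.6% in all. Groups did not overlap for 4 genes higher and 6 lower in wild type, beside 35.3% and 36.7% of all genes tested. TUBA1A had 2979 and 3029.6 normalised reads after transfection, well under both wild-type values, and a log2 fold change of wild type over rescue of 0.84 (SE 0.06, DESeq2 adjusted p = 7.9e-42) in the authors' deposited table. TUBB4B was higher in wild type at 0.19 (SE 0.05, DESeq2 adjusted p = 0.00023) in the authors' deposited table. TUBA1B (-0.51), TUBB6 (-0.48), TUBA1C (-0.43), TUBA4A (-0.18) and TUBB (-0.14) were lower in wild type in the authors' deposited table. The TUBA4A call (DESeq2 adjusted p = 0.042) was lost when fold changes were centred on the median of genes whose base mean was 100 or more. It was also lost in limma without 1 wild-type library (-0.11, adjusted p = 0.24) or 1 transfected library (-0.12, adjusted p = 0.22). Limma did not call TUBB (-0.12, adjusted p = 0.097) and called TUBB2B (0.20, adjusted p = 0.012) and TUBB3 (0.38, adjusted p = 0.033) higher in wild type. With the statistics divided by their spread of 3.86, TUBA1A and TUBA1B kept their calls.

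In the second experiment 8 of the 10 genes differed between cells transfected with wild-type G3BP1 and untransfected KO cells, with 5 higher and 3 lower. In the authors' deposited table of WT rescue over KO, 42.1% of 20738 genes were called, 23.0% higher and 19.1% lower. Groups did not overlap for 7 genes higher and 3 lower, beside 38.3% and 39.0% of all genes tested. Genes whose base mean was 100 or more had a median of 0.18 in that deposited table of the authors, so small positive values are near the middle of all genes.

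TUBA1A fell furthest. It had 1073 and 1109 normalised reads in KO libraries and 125 and 133 in WT rescue libraries, with no overlap. Its log2 fold change was -3.01 (SE 0.15, DESeq2 adjusted p = 2.4e-84) in the authors' deposited table, or 0.124 times the KO level. The other alpha genes rose. TUBA1C had 4349 and 4375 normalised reads in KO libraries and 8686 and 9292 in WT rescue libraries, with 1.06 (SE 0.05, DESeq2 adjusted p = 4.0e-83) in the authors' deposited table. TUBA4A went from 184 and 219.9 to 372 and 405 normalised reads, with 0.94 (SE 0.19, DESeq2 adjusted p = 4.8e-06) in the authors' deposited table. TUBA1B went from 15024 and 15874 to 22033 and 22396 normalised reads, with 0.54 (SE 0.04, DESeq2 adjusted p = 1.8e-36) in the authors' deposited table. TUBA1A therefore made up 5.15% and 5.19% of the reads on the 4 alpha genes in KO libraries and 0.402% and 0.411% in WT rescue libraries. These are shares of reads, not of molecules, since gene lengths were not used.

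Of the beta genes, TUBB6 rose most, from 3878 and 4316 normalised reads to 7646 and 7655, with 0.92 (SE 0.06, DESeq2 adjusted p = 3.3e-52) in the authors' deposited table. Its share of the reads on the 6 beta genes was 11.2% and 11.6% in KO libraries and 18.7% and 18.9% in WT rescue libraries. TUBB2B fell from 444 and 541 normalised reads to 190.3 and 253, with -1.10 (SE 0.19, DESeq2 adjusted p = 4.7e-08) in the authors' deposited table. TUBB3 had 82.6 and 110.0 normalised reads in KO libraries and 42.5 and 54.3 in WT rescue libraries, which did not overlap. Its log2 fold change was -0.88 (SE 0.36, DESeq2 adjusted p = 0.033) in the authors' deposited table. With no filter on low genes its adjusted p was 0.053. TUBB4B was called at 0.18 (SE 0.07, DESeq2 adjusted p = 0.022) in the authors' deposited table. Centred on the median of those whose base mean was 100 or more, it stood at 0.00 with an adjusted p of 0.99, and limma without 1 KO library gave 0.08 (adjusted p = 0.29). TUBB was not called at 0.08 (SE 0.04, DESeq2 adjusted p = 0.12) in the authors' deposited table. Once centred it lay at -0.10 (adjusted p = 0.034). TUBB2A had 0.39 (SE 0.27, DESeq2 adjusted p = 0.27) in the authors' deposited table. Limma called it (0.38, adjusted p = 0.028). With the statistics divided by their spread of 4.99, TUBA1A and TUBA1C kept their calls.

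**Figure D3:**
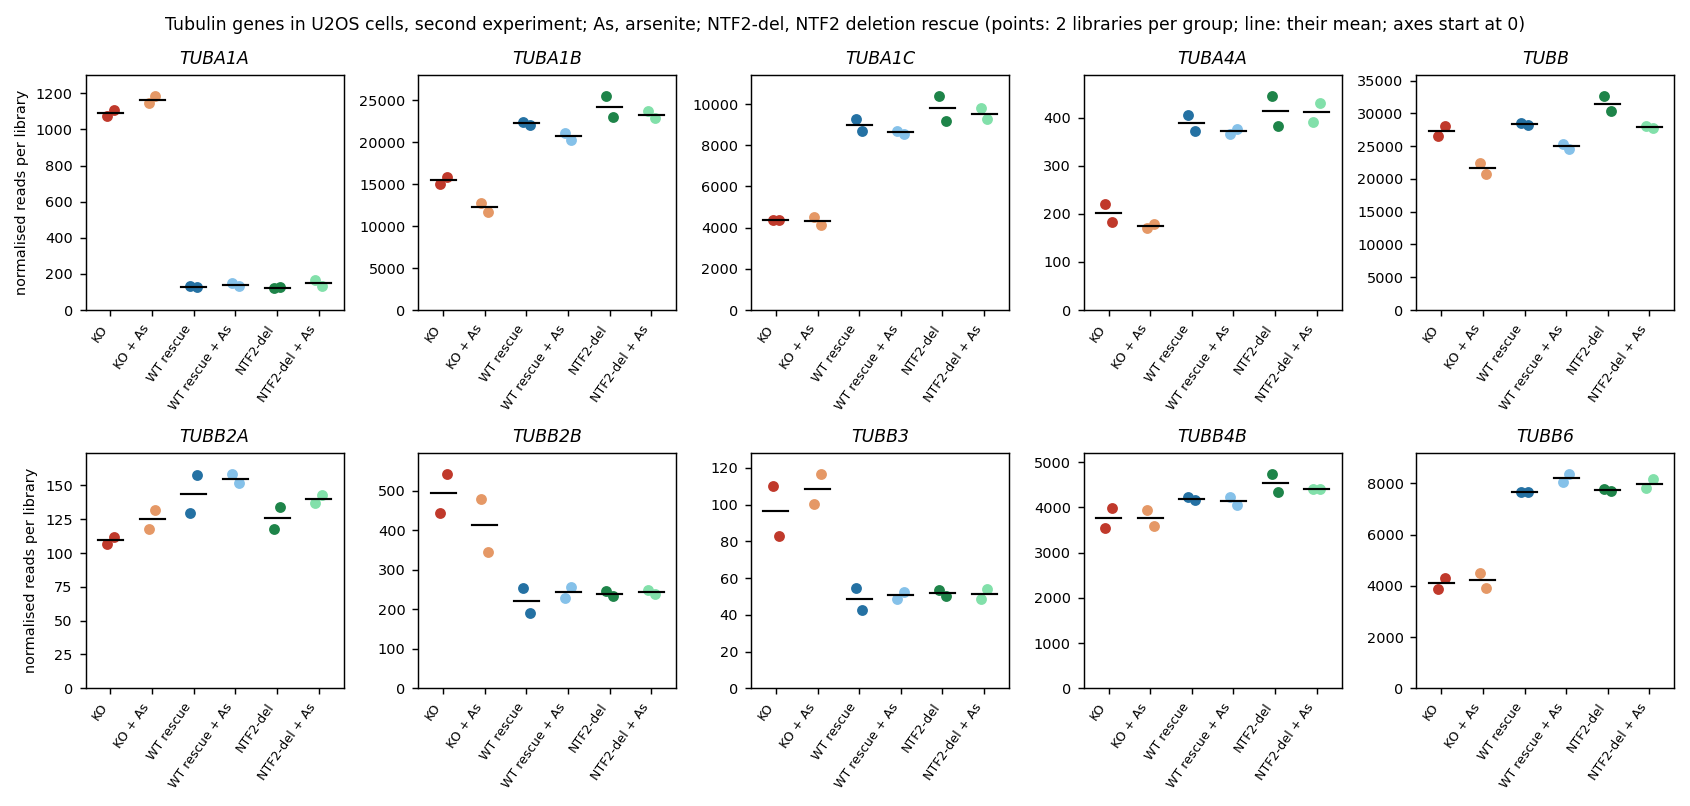
Normalised reads per library (y axes, starting at 0) of each tubulin gene in the 6 groups of the second experiment, with 2 libraries per group as points and their mean as a line. TUBA1A, TUBB2B and TUBB3 are lower, and TUBA1B, TUBA1C, TUBA4A and TUBB6 higher, in the rescue libraries than in the KO libraries.

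G3BP1 lacking NTF2 was set against the same KO libraries as the WT rescue. TUBA1A was again the gene that fell furthest, and TUBA1C the one that rose most. The authors' deposited table called 6 tubulin genes higher and 2 lower, where 22.8% and 18.7% of 20911 genes were called in each direction and 41.5% in all. Groups did not overlap for 7 genes higher and 3 lower, beside 37.3% and 39.0% of all genes tested. TUBA1A had 119 and 127 normalised reads after NTF2 deletion rescue, at -3.07 (SE 0.15, DESeq2 adjusted p = 9.2e-88) in the authors' deposited table. TUBA1C was at 1.18 (SE 0.07), TUBA4A at 1.03 (SE 0.19), TUBB6 at 0.94 (SE 0.06) and TUBA1B at 0.67 (SE 0.06) in the authors' deposited table. TUBB (0.23) and TUBB4B (0.29) were also called higher, and TUBB2B (-0.99) lower, in the authors' deposited table. Centred on the median of those whose base mean was 100 or more, TUBB stood at 0.06 (adjusted p = 0.35) and TUBB4B at 0.13 (adjusted p = 0.17). TUBB3 had 50.3 and 53.7 normalised reads and -0.79 (SE 0.34, DESeq2 adjusted p = 0.051) in the authors' deposited table, while limma called it (-0.86, adjusted p = 0.00096). With the statistics divided by their spread of 4.95, TUBA1A and TUBA1C kept their calls.

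The difference between the 2 rescues was tested from both deposited tables, as the difference of log2 fold changes over the root of the summed squared standard errors, with Benjamini-Hochberg adjustment over 16210 genes. None of the 10 tubulin genes was called, and limma called none either, against 0.0185% of all genes tested. Before adjustment, 1 tubulin gene had p under 0.05, namely TUBB at -0.15 (SE 0.07, adjusted p = 1.00). WT rescue minus NTF2 deletion rescue was 0.06 (SE 0.22) for TUBA1A, -0.12 (SE 0.09) for TUBA1C and -0.13 (SE 0.07) for TUBA1B. The shared KO libraries make these standard errors too large. Limma, which does not count the KO libraries in this difference, gave -0.15 (SE 0.05, adjusted p = 0.12) for TUBB. It gave -0.12 (SE 0.05) for each of TUBA1B and TUBA1C. TUBA1A (0.06, SE 0.11) and TUBB2A (0.19, SE 0.15) lay on the other side of 0 in limma. A p that misses the threshold does not show that the rescues act alike.

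Arsenite calls among the tubulin genes were about as frequent as among all genes. In KO cells TUBA1B and TUBB fell, in WT rescue cells the same 2 genes were called lower, and in NTF2 deletion rescue cells only TUBB was called. The share of genes called was 19.4% of 15497 in KO cells (8.56% higher, 10.9% lower), 20.4% of 13635 after WT rescue (8.18% higher, 12.2% lower) and 8.57% of 11578 after NTF2 deletion rescue (2.43% higher, 6.14% lower). Groups did not overlap for 2 genes higher and 3 lower in KO cells (31.4% and 32.5% of all genes tested), for 1 higher and 4 lower after WT rescue (32.4% and 29.6%) and for 3 higher and 1 lower after NTF2 deletion rescue (30.0% and 27.3%). No tubulin gene was called higher in any of these 3 deposited tables of the authors, and TUBB3 had no adjusted p in the NTF2 deletion table. The other 8 genes lay between -0.22 (TUBB2B) and 0.17 (TUBB2A) in KO cells in the authors' deposited table.

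TUBB had 26524 and 28058 normalised reads in KO libraries and 20738 and 22438 with arsenite, and a log2 fold change of -0.32 (SE 0.06, DESeq2 adjusted p = 1.9e-07) in the authors' deposited table. After WT rescue it went from 28148 and 28559 to 24586 and 25317 normalised reads, at -0.20 (SE 0.03, DESeq2 adjusted p = 1.5e-09) in the authors' deposited table. After NTF2 deletion rescue it went from 30337 and 32656 to 27807 and 28064 normalised reads, at -0.17 (SE 0.04, DESeq2 adjusted p = 0.00017) in the authors' deposited table. Treated and untreated TUBB values did not overlap in any of the 3 backgrounds. In limma the TUBB call after WT rescue was lost without 1 untreated library (-0.17, adjusted p = 0.063) or 1 arsenite library (-0.16, adjusted p = 0.089). After NTF2 deletion rescue it was lost in limma without 1 untreated library (-0.12, adjusted p = 0.22) and without either arsenite library (-0.18, adjusted p = 0.072, and -0.17, adjusted p = 0.091).

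TUBA1B had 15024 and 15874 normalised reads in KO libraries and 11666 and 12768 with arsenite, and a log2 fold change of -0.32 (SE 0.06, DESeq2 adjusted p = 1.2e-06) in the authors' deposited table. After WT rescue it had 22033 and 22396 without and 20290 and 21029.5 normalised reads with arsenite, at -0.12 (SE 0.03, DESeq2 adjusted p = 0.0014) in the authors' deposited table. Limma did not call this smaller change (-0.10, adjusted p = 0.15). After NTF2 deletion rescue the treated values of 22802 and 23655 overlapped the untreated values of 22967 and 25488, at -0.06 (SE 0.04, DESeq2 adjusted p = 0.57) in the authors' deposited table. With the statistics divided by their spread, 2.05 in KO cells, neither gene was called in KO cells, while TUBB was called after both rescues.

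**Figure D4:**
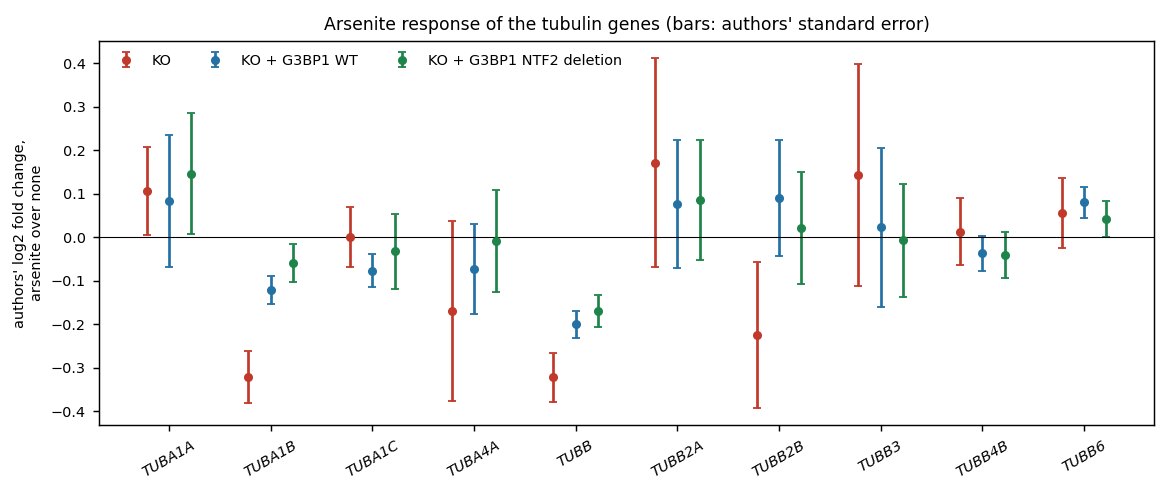
Log2 fold change with arsenite over without (y axis) for each tubulin gene in KO cells, KO cells with wild-type G3BP1 and KO cells with G3BP1 lacking NTF2, with the authors' standard error as bars. TUBB lies under 0 in all 3 backgrounds, and TUBA1B lies at -0.32 in KO cells, -0.12 after WT rescue and -0.06 after NTF2 deletion rescue.

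The arsenite responses themselves were compared between backgrounds with the same difference test. For NTF2 deletion rescue minus KO, TUBA1B was the called tubulin gene, with a difference of 0.26 (SE 0.07, adjusted p = 0.0084), where 7.12% of 15442 genes were called. Limma gave 0.28 (SE 0.07, adjusted p = 0.0053) for that difference, and the call was lost without 1 untreated library (0.20, adjusted p = 0.064) or 1 arsenite library (0.25, adjusted p = 0.051) of the NTF2 deletion rescue. For WT rescue minus KO the TUBA1B difference was 0.20 (SE 0.07, adjusted p = 0.061), where 4.51% of 15648 genes were called. It passed with a base mean minimum of 100 (adjusted p = 0.044) and in limma (0.23, adjusted p = 0.027). The TUBB differences of 0.12 (SE 0.06, adjusted p = 0.41) and 0.15 (SE 0.07, adjusted p = 0.20) were not called. Between the 2 rescues, no tubulin gene's arsenite response was called by this test or by limma, against 0.328% of 15865 genes, and none had an unadjusted p under 0.05 in the difference test.

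Arsenite-treated rescue cells were also set against untreated KO cells. The authors' deposited table of arsenite-treated WT rescue over untreated KO called 5 tubulin genes higher and 3 lower, against 25.1% and 19.8% of 22192 genes and 44.9% in all. The table of treated NTF2 deletion rescue over untreated KO also called 5 higher and 3 lower, against 23.3% and 19.6% of 21660 genes and 43.0% in all. Groups did not overlap for 6 genes higher and 3 lower in the first of these (39.4% and 39.0% of all genes tested) and for 7 higher and 3 lower in the second (38.4% and 39.1%). TUBA1A stood at -2.86 (SE 0.14) and -2.80 (SE 0.15) in these 2 deposited tables of the authors, TUBA1C at 1.04 (SE 0.05) and 1.16 (SE 0.05), and TUBB6 at 1.06 (SE 0.06) and 1.00 (SE 0.06). Both tables share the untreated KO libraries with the untreated rescue comparisons. With the statistics divided by their spread, TUBA1A and TUBA1C kept their calls in each.

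The fold change of G3BP1-transfected over KO cells differed between the 2 experiments for 7 of the 10 genes, where 37.3% of 16369 genes differed. TUBA1A had a log2 fold change of rescue over KO of -3.01 in the second experiment and -0.07 in the first, a difference of -2.95 (SE 0.17, adjusted p = 2.5e-68). TUBB2B went from 0.05 in the first to -1.10 in the second, a difference of -1.15 (SE 0.21, adjusted p = 3.1e-07). TUBB6 (0.54, SE 0.07), TUBA1C (0.45, SE 0.07) and TUBA1B (0.35, SE 0.06) rose more in the second experiment. TUBB4B (-0.42, SE 0.08) and TUBB (-0.29, SE 0.05) rose more in the first. TUBA4A (-0.37, SE 0.21), TUBB2A (0.02, SE 0.31) and TUBB3 (-0.87, SE 0.41) had adjusted p of 0.17, 0.97 and 0.083. G3BP1 reads after transfection differed too, with a log2 fold change of KO over rescue of -0.69 (SE 0.04) in the first experiment and of rescue over KO of 7.31 (SE 0.04) in the second, from the authors' deposited tables. Whether the level of the transgene bears on the tubulin differences was not tested, and the experiments also differ in depth.

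**Figure D5:**
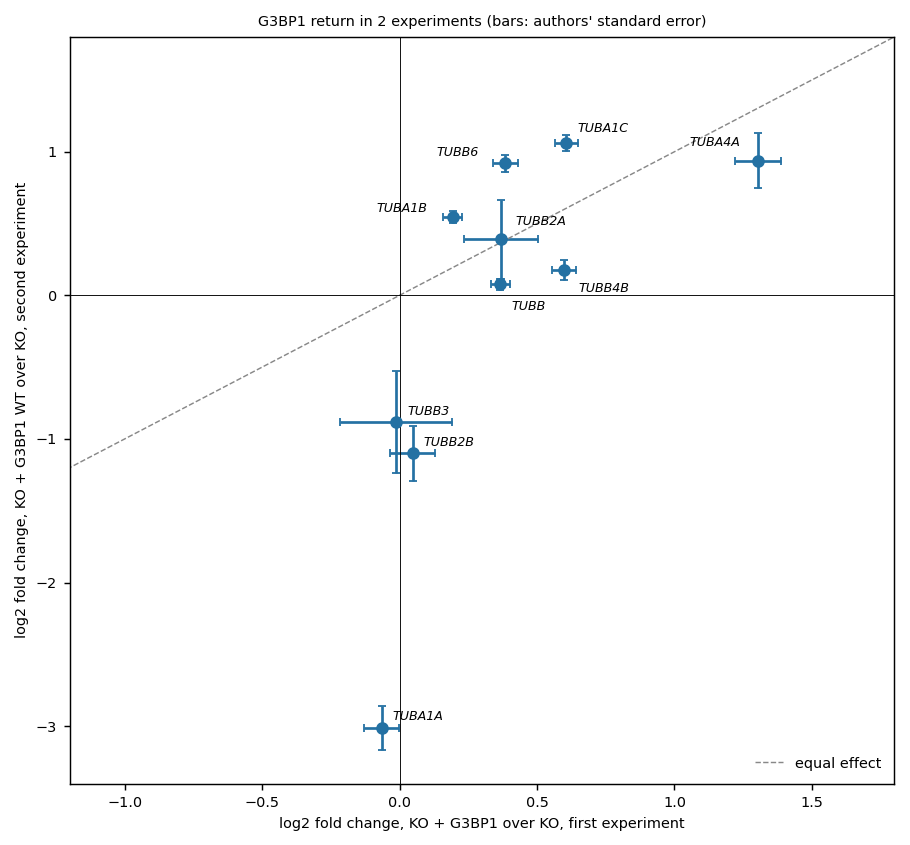
Log2 fold change of each tubulin gene after G3BP1 transfection over KO in the first experiment (x axis) and the second (y axis), with the authors' standard errors as bars and equal effects as a dashed line. TUBA1A, TUBB2B and TUBB3 lie near 0 on the x axis and at -3.01, -1.10 and -0.88 on the y axis.

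Genes that act on tubulin were counted from lists in the same tables. The 8 subunits of the CCT chaperonin, which folds tubulin and actin, were all called higher in the precipitate, in the WT rescue and in the NTF2 deletion rescue, and all called lower in KO than in G3BP1-transfected cells of the first experiment. The shares of all genes called in those directions were 24.7%, 23.0%, 22.8% and 21.5%. Their median log2 fold changes were 1.16, 0.84, 0.90 and -0.44, against medians of -0.26, -0.03, -0.02 and 0.01 over all genes tested. Genes whose base mean was 100 or more had medians of 0.12, 0.18, 0.17 and -0.05. In KO over wild type, 1 CCT gene was called higher and 4 lower (18.4% and 19.4% of all genes), with a median of -0.12. In wild type over G3BP1-transfected cells, 0 were called higher and 7 lower (15.2% and 20.4% of all genes), with a median of -0.34. TCP1 stood at 0.91 (SE 0.06) after WT rescue in the authors' deposited table, CCT2 at 0.90 (SE 0.06) and CCT8 at 0.88 (SE 0.05). Of the 6 prefoldin subunits, which pass new tubulin and actin chains to CCT, 4 were called higher and 1 lower after WT rescue, where 23.0% and 19.1% of all genes were. PFDN2 was at 1.72 (SE 0.10) there in the authors' deposited table. Of 6 genes of the tubulin assembly machinery, TBCA to TBCE and the small GTPase ARL2, 2 were called higher and 0 lower after WT rescue, no larger a share than the 42.1% of all genes called there. TBCA was at 0.81 (SE 0.14) in the authors' deposited table. In KO over wild type 1 of those 6 was called higher and 1 lower, beside 18.4% and 19.4% of all genes. TBCA stood there at 0.40 (SE 0.10) and TBCB, which binds alpha tubulin, at -1.24 (SE 0.07) in the authors' deposited table.

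The 12 autoregulation genes, TTC5, SCAPER and subunits of CCR4-NOT, had 6 called higher and none lower after WT rescue (23.0% and 19.1% of all genes) and 7 higher and none lower after NTF2 deletion rescue (22.8% and 18.7%). CNOT11 (0.64, SE 0.10), CNOT7 (0.57, SE 0.09) and CNOT9 (0.54, SE 0.08) had the largest values after WT rescue in the authors' deposited table. In the precipitate 6 were higher and 5 lower (24.7% and 31.4% of all genes), with CNOT1, the scaffold of the complex, at -3.35 (SE 0.17) in the authors' deposited table. In KO over wild type 1 was higher and 4 lower, beside 18.4% and 19.4% of all genes.

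Tubulin-modifying enzymes did not share a direction after rescue, with 3 called higher and 5 lower of 15 tested after WT rescue, beside 23.0% and 19.1% of all genes. The tubulin carboxypeptidases VASH2 (-2.96, SE 0.27) and VASH1 (-2.47, SE 0.20), which remove the C-terminal tyrosine of alpha tubulin, and the deacetylase HDAC6 (-1.12, SE 0.11) had the largest values in the authors' deposited table. In KO over wild type 5 of 16 were called higher and 7 lower, beside 18.4% and 19.4% of all genes. The polyglutamylase TTLL7 was there at -5.44 (SE 0.34) and VASH2 at 1.22 (SE 0.13) in the authors' deposited table. In the precipitate 4 of 16 were higher and 11 lower, beside 24.7% and 31.4% of all genes. Of 18 stathmins and lattice-binding proteins, 17 were tested in the precipitate, with 6 higher and 8 lower (24.7% and 31.4% of all genes), among them the microtubule-associated proteins MAP1B (-3.58, SE 0.14) and MAP1A (-3.30, SE 0.18) in the authors' deposited table. After WT rescue 4 of 16 were higher, near the 23.0% of all genes, and 7 lower, where 19.1% of all genes were. STMN1, which sequesters tubulin dimers, was at -0.69 (SE 0.07) in the authors' deposited table.

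Of 9 gamma-tubulin ring complex genes, 3 were higher and 6 lower in the precipitate (24.7% and 31.4% of all genes), with TUBGCP6 at -3.20 (SE 0.22) and MZT2B at 1.51 (SE 0.12) in the authors' deposited table. Of 4 gamma, delta and epsilon tubulin genes, 2 were higher and 1 lower in the precipitate (24.7% and 31.4% of all genes). TUBG1, the gamma tubulin that nucleates microtubules, was there at 1.81 (SE 0.12) and TUBE1 at -0.53 (SE 0.14) in the authors' deposited table. Of 9 other alpha and beta tubulin genes, 5 were tested after WT rescue, with 1 called higher and 1 lower, near the 42.1% of all genes called. In KO over wild type 5 of those 9 were tested, with 0 called higher and 1 lower, beside 18.4% and 19.4% of all genes. The called gene was TUBB4A, at -1.88 (SE 0.14) in the authors' deposited table. For 7 actin and actin-binding genes, 6 were higher and 0 lower in the precipitate (24.7% and 31.4% of all genes), with the actin-binding proteins PFN1 at 2.12 (SE 0.10) and CFL1 at 1.88 (SE 0.10) in the authors' deposited table. Under arsenite in KO cells ACTG1 and ACTB were called higher, at 0.99 (SE 0.06) and 0.55 (SE 0.05) in the authors' deposited table, and 2 other genes of that list were called lower, beside 8.56% and 10.9% of all genes.

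Across the 9 U2OS groups, the genes most like TUBA1B by Pearson's r of log2 group means centred within each experiment, among 10947 genes, were MCM3 (0.996), FAM136A (0.996) and EXOSC1 (0.995). For TUBB they were FAHD2B (0.981), RRM2 (0.970) and ABHD14B (0.962). Within the family, TUBA1B had r of 0.92 with TUBB6, 0.91 with TUBA1C, -0.86 with TUBB2B and -0.93 with TUBA1A. These values are a description, since groups of 1 experiment were normalised together.

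Reads that fit several near-identical tubulin genes limit these values. TUBA1A, TUBA1B and TUBA1C, and TUBB2A and TUBB2B, are close copies. The tables hold separate lines for multimapping and ambiguous reads, so by the names of these lines such reads were kept apart from the genes. Multimapping reads averaged 1.11 M normalised reads per library in the precipitation table, 3.81 to 4.15 M in the first-experiment tables and 1.47 to 1.77 M in the second. Reads shared between such copies are therefore missing from the values above, and how many came from tubulin genes is not given. Levels of the copies relative to each other are uncertain for that reason. In bulk RNA, fewer cells of a kind and less RNA per cell cannot be told apart.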

How the data were processed

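Poly-A RNA was sequenced from directional NEBNext Ultra II libraries, per the labels' protocols. STAR and DESeq2 2.11.40.6 are named by the submitters in their processing notes, and the genome build, annotation and read counter are not given in the sources used here. Each of 11 deposited tables gives, per the file headers, a base mean (a signal, the mean count scaled by the authors' size factors), a log2 fold change with its standard error, a Wald score, a p-value and an adjusted p-value. The deposited log2 fold changes are shrunken towards 0, so they understate changes of scarce genes. Calls use an adjusted p under 0.05, as the authors deposited it from DESeq2. The 4 summary lines of each table were left out.

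Whole reads per U2OS library were worked out from the base means of tables that share groups, with Python 3.11.15 and sympy 1.14.0. For all 10 tubulin genes in both experiments, the solution used was the nearest to a start with the libraries of a group at equal level. Solutions farther from that start were not searched for. Size factors recomputed from the reads differed from those used by at most 0.0137%, and the method for the U2OS libraries was tested on simulated data. With such reads limma 3.58.1 (R 4.3.3) was fitted to log2 of normalised reads plus 1, for genes averaging at least 10, over all libraries of an experiment, an alternative chosen after seeing the data. Differences between comparisons used a two-sided normal test, over genes whose base mean was 10 or more in each of the tables. The test took the shrunken fold changes and makes no allowance for unequal shrinkage. After NTF2 deletion rescue, the TUBA1A arsenite log2 fold change was 0.15 as deposited and 0.27 as a ratio of group means. In KO cells both were 0.11. Other settings were centring, scaling by the spread of the statistics, other thresholds and filters, and leaving out each library.

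The tubulin family was picked as a subject, and the gene lists were drawn up, with earlier results of these data known, although its 10 genes were matched by symbol. From each list, up to 3 called genes were named, those of largest fold change among genes with base mean 100 or higher. Promoter sequences are RefSeq's, on GRCh38.p14, matched by symbol for all 10 genes. Depth is given with the results, and it limits TUBB3 and, in the precipitation, TUBA4A.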

Additional observations from a re-analysis of the deposited data

Results flagged for a closer look

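A test of the difference itself set apart 8 results, in which the same contrast gave different values in different settings. For the arsenite response, the difference between NTF2 deletion rescue and KO cells was 0.26 on the log2 scale for TUBA1B. The other 7 are differences between the rescue effect of the second and the first experiment. TUBA1A differed by -2.95, TUBB2B by -1.15, TUBB4B by -0.42 and TUBB by -0.29, which were lower in the second experiment. TUBB6 differed by 0.54, TUBA1C by 0.45 and TUBA1B by 0.35, which were higher there. Of all genes tested for that difference between experiments, 37.3% were called. The transgene level, the depth and the set of libraries differ between the experiments and cannot be told apart.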

How the results depend on the processing

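No paired analysis was possible because the labels number the libraries but the tables hold no library columns, so the reads worked out here cannot be tied to a numbered library. Of 170 counts of called tubulin genes under other settings, 147 stayed within 1.5 times and 23 did not. The shares of all genes called under these settings, or with a library left out, are not given. The counts below therefore describe the 10 genes only and do not set them apart from other genes. Dividing the statistics by their spread over genes left 0 higher and 0 lower in the precipitate, 0 higher and 1 lower in KO over wild type, and 2 lower in KO over G3BP1 rescue. It left 1 higher and 1 lower in wild type over rescue and in each of the 4 rescue comparisons with KO, 0 lower for arsenite in KO cells and 1 lower after WT rescue. In the precipitate 0 were lower with an adjusted p threshold of 0.01 or a base mean of at least 10. Limma called 4 higher in wild type over rescue, 1 lower for arsenite after WT rescue and 1 larger for the difference of arsenite responses, WT rescue minus KO, which was also 1 with a base mean of at least 100. Centring on the median turned TUBB to -0.10 in WT rescue over KO and to -0.12 in arsenite-treated NTF2 deletion rescue over KO, and TUBB4B to -0.026 in arsenite-treated WT rescue over KO. The cause was not tested, except that centring subtracts the same shift from every gene.

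Leaving out each library in turn, with limma, gave 1 to 2 higher and 6 to 7 lower in KO over wild type, 0 higher and 6 to 7 lower in KO over rescue, and 2 to 3 higher and 3 to 4 lower in wild type over rescue. It gave 4 to 6 higher and 3 lower in WT rescue over KO, and 6 higher and 3 lower in NTF2 deletion rescue over KO. With arsenite it gave 0 to 1 higher and 2 to 3 lower in KO cells and 0 to 1 lower after either rescue. Arsenite-treated WT rescue over KO had 5 to 6 higher and 3 to 4 lower, and arsenite-treated NTF2 deletion rescue over KO 5 higher and 3 lower. The difference of arsenite responses was larger for 0 to 3 genes in WT rescue minus KO and 0 to 2 in NTF2 deletion rescue minus KO. A library left out leaves 1 in its group, which is assumed to vary like the others.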

Other observations

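Among the actin genes, TMSB4X, which sequesters actin monomers, fell to a log2 fold change of -2.50 (SE 0.07) in WT rescue over KO and -2.32 (SE 0.07) in NTF2 deletion rescue over KO in the authors' deposited tables. The actin-binding gene PFN1 rose in both, to 0.72 (SE 0.06) and 0.82 (SE 0.06) in the authors' deposited tables. In KO over wild type of the first experiment TMSB4X stood at 0.44 (SE 0.05) in the authors' deposited table.

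NEDD1, which brings the gamma-tubulin ring complex to the centrosome, fell to -0.90 (SE 0.13) in WT rescue over KO, and MZT1, a small subunit of the complex, rose to 0.65 (SE 0.17) in the authors' deposited table. Of the 9 genes of that list 4 were called higher and 2 lower there, beside 42.1% of all genes tested.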
